A study of Mus musculus with 4 samples.

Results

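The skeletal lineage factors described here are 10 transcription factors of the Sox, Runx, Sp, Dlx and Mef2 families: Sox9, Sox5, Sox6, Runx1, Runx2, Runx3, Sp7, Dlx5, Dlx6 and Mef2c. They were chosen by name, as genes known to direct cells of the limb skeleton to cartilage or bone, and make up 10 of the 32285 genes counted in the files. All 10 were detected in each of the 4 libraries. Sox9 commits mesenchyme to cartilage and, with its partners Sox5 and Sox6, holds up transcription of the cartilage matrix genes. Runx2, with Runx3, drives chondrocytes into hypertrophy and, with Sp7 downstream of it, drives osteoblast differentiation, while Mef2c acts in hypertrophic chondrocytes and Dlx5 and Dlx6 promote both fates. Runx1 is best known for blood formation and is also expressed in early cartilage and in mesenchyme around it.

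The study used single-cell RNA sequencing to describe how the interzone, the band of cells that becomes the joint, forms in the embryonic mouse knee and how it depends on glucose uptake. The measured tissue was the presumptive knee region of hindlimb cartilage anlagen, dissociated with collagenase, with 1 library for each of 4 groups. The controls, WT in their titles, carried no Cre and were taken at E13.5 and at E14.5. A further E14.5 library is labelled Prx1Cre;Glut1f/f;Glut3f/+ (G1KO in its title), in which both Glut1 (Slc2a1) alleles and 1 Glut3 (Slc2a3) allele are floxed, and the last is labelled Prx1Cre;Glut1f/f;Glut3f/f, here called DCKO, with both alleles of both genes floxed. Prx1Cre acts in limb bud mesenchyme and the cells that come from it, so blood, vessel and muscle cells are largely outside its reach. The number of embryos behind each library was not given in the sources used here, apart from a lower limit per genotype that the methods set for all experiments. With 1 library per group no difference between groups could be tested, and each interval given below is a 95% interval of counting error alone.

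Values for the 4 libraries are always given in the order E13.5 control, E14.5 control, G1KO, DCKO. The files held 12769, 9707, 11690 and 11602 barcodes with 100344565, 84188147, 97110697 and 91574038 unique molecular identifiers (UMIs, each standing for 1 captured transcript). Cells were kept if they had 200 to 6000 genes and no more than 10% of UMIs from mitochondrial genes, which left 12446, 9305, 11264 and 11305 cells with medians of 6176.5, 7279, 6757 and 6379 UMIs and 2422, 2563, 2379 and 2245 genes. Xist was detected in 64.7, 0.172, 92.2 and 91.2% of kept cells and Y-linked genes in 18.4, 65.9, 0.0355 and 0.0265%, so sex differed between the E14.5 control and the other E14.5 libraries. Sex and genotype therefore cannot be told apart at E14.5, and sex mix and age cannot be told apart between the controls.

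Transcripts of the transporters were examined first. Slc2a1, the main glucose carrier of chondrocytes, stood at 48.1, 64.7, 339 and 428 CPM over all kept cells, where CPM are the UMIs of a gene scaled to a common total of all UMIs in the summed cells. In matrix-rich chondrocytes its level was 82.6, 84.8, 476 and 483 CPM, and in prehypertrophic chondrocytes 122, 109.5, 568 and 639 CPM. Both libraries labelled as floxed for Glut1 with Cre thus held more Slc2a1 than the controls, where a loss of the transcript would give less. Slc2a1 was also higher in these libraries in cells largely outside the reach of Prx1Cre. Erythroid cells held 40.1, 21.9, 132 and 198 CPM, macrophages 29.95, 20.8, 63.9 and 146 CPM and myocytes 25.9, 22.9, 79.2 and 75.1 CPM. The higher counts were thus not limited to skeletal cells, and how much of them was free RNA was not tested. Slc2a3 stood at 5.13, 3.38, 4.32 and 2.70 CPM from 471, 268, 401 and 238 UMIs, and in matrix-rich chondrocytes at 4.95, 2.78, 4.03 and 1.61 CPM from 37, 102, 146 and 68 UMIs, lowest in the library labelled DCKO, the one labelled for both Glut3 alleles with Cre. In osteogenic cells that library held 31.6 CPM against 6.83 CPM in the E14.5 control. UMIs come from the 3′ end of transcripts and may lie outside the deleted part, so neither gene checks the deletion. Every mutant result below rests on a single library with raised Slc2a1 and an unchecked deletion. None can be given without that library.

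Cells were placed in groups by marker UMIs that did not include the 10 factors. Prehypertrophic chondrocytes had at least 2 UMIs of Ihh and 5 of Col2a1, and numbered 591, 174, 249 and 337. Chondrocytes without Ihh or Col10a1 were split by Matn1 into matrix-rich cells with at least 3 UMIs (874, 3866, 3707 and 4438 cells), intermediate cells with 1 or 2 (549, 396, 679 and 945) and immature cells with 0 (1361, 751, 966 and 1378). Interzone cells had at least 2 UMIs of the joint ligand gene Gdf5 (1411, 588, 611 and 221 cells), and osteogenic cells had Col1a1 with at least 2 UMIs of bone markers (206, 146, 221 and 152). Hypertrophic cells, with at least 3 UMIs of Col10a1, numbered 18, 2, 47 and 38, too few for a value in the controls. A gate on UMI numbers favours deep cells, and prehypertrophic cells had medians of 10810, 18898.5, 19076 and 16051 UMIs against 7460, 8485.5, 8714 and 8350.5 in matrix-rich cells.

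Markers outside the gates were read to see what each gate held. Panx3, a channel of prehypertrophic chondrocytes, stood at 217, 211, 234 and 142 CPM in the prehypertrophic gate against 9.77, 6.80, 6.90 and 6.83 CPM in matrix-rich cells. Osr2, a joint transcription factor, stood at 413, 253, 203 and 112 CPM in the interzone gate against 45.5, 28.7, 32.2 and 22.4 CPM in matrix-rich cells. Omd (osteomodulin), a gene of maturing osteoblasts, was low in the osteogenic gate, at 8.22, 16.4, 17.1 and 9.38 CPM. Ibsp, bone sialoprotein and itself a marker of the gate, stood at 5.80, 4.78, 1169 and 2.56 CPM there, highest by far in the library labelled G1KO. Of the kept cells, 4171, 1518, 2311 and 2174 met no gate, and those of the E14.5 control were led by Rspo3, a Wnt agonist of mesenchyme.

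Sox9 was seen through all cartilage stages. In the E14.5 control, 78.6% of its UMIs, 84.8% of those of Sox5 and 76.1% of those of Sox6 fell in the chondrocyte gates, which held 60.8% of all UMIs. Its level in immature chondrocytes was 460.4, 495, 431 and 376 CPM, in intermediate ones 481, 528, 465 and 386 CPM and in matrix-rich ones 556, 526, 518 and 316 CPM. Along this series the level differed by less than 1.5-fold in each library, and the library labelled DCKO stood below the others in matrix-rich cells. Prehypertrophic chondrocytes held 498, 559, 412 and 219.9 CPM, so that in the controls Sox9 was carried into the Ihh-positive stage, with a log2 ratio of prehypertrophic over matrix-rich cells of -0.16 in the E13.5 and 0.088 in the E14.5 control. Interzone cells, in which cartilage genes are held low, still held 486, 409.8, 414 and 344 CPM. The log2 ratio of interzone over immature chondrocytes was 0.078 (95% interval 0.022 to 0.13) in the E13.5 and -0.27 (-0.36 to -0.19) in the E14.5 control, neither of which reached 1.5-fold (0.58 on the log2 scale).

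Outside cartilage, Sox9 was lower. Osteogenic cells held 89.0, 129, 133 and 187 CPM, tendon cells 172, 182, 135 and 120.0 CPM, mesenchyme beside the joint 176, 179, 150.2 and 164 CPM and fibroblasts 85.8, 234, 167 and 196 CPM. The log2 ratio of osteogenic cells over immature chondrocytes was -2.37 in the E13.5 and -1.94 in the E14.5 control. Cells that should lack the gene gave a floor for free RNA, with erythroid cells at 86.6, 69.1, 184 and 86.8 CPM, macrophages at 111, 70.1, 33.2 and 56.8 CPM and myocytes at 48.7, 27.6, 68.3 and 39.8 CPM. The osteogenic and fibroblast values of the E13.5 control were close to the erythroid value of that library, and in the library labelled G1KO all 4 of these groups lay below the erythroid value. By the erythroid value, Sox9 of these groups cannot be told apart from free RNA in those libraries. In the library labelled G1KO all 4 groups did lie above the macrophage and myocyte values.

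Sox5 and Sox6, which bind as partners beside Sox9, followed it across cartilage but not in detail. Sox5 stood at 153, 222, 182 and 171 CPM in immature chondrocytes, 258, 266, 232 and 212 CPM in matrix-rich ones and 179, 188, 147 and 128 CPM in prehypertrophic ones. Its level rose from immature to matrix-rich cells at E13.5, by a log2 ratio of 0.76, and the ratio at E14.5 was 0.26. Sox6 stood at 207, 226, 194 and 169 CPM in immature, 251, 202, 173 and 163 CPM in matrix-rich and 213, 134, 132 and 129 CPM in prehypertrophic chondrocytes. The prehypertrophic to matrix-rich log2 ratio of Sox6 was -0.24 (95% interval -0.34 to -0.14) in the E13.5 and -0.59 (-0.73 to -0.46) in the E14.5 control, where Sox6 was lower in the later stage. That call was lost under 6 of the 8 processing alternatives, with -0.39 under gates of 1 UMI or marker fewer, -0.53 under TMM scaling (trimmed mean of M-values) and 0.049 with cells thinned to 2000 UMIs.

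In the interzone, Sox5 stood at 214, 139.6, 161 and 153 CPM and Sox6 at 242, 197, 200.1 and 188 CPM. UMIs of the whole Sox trio were thus found in the Gdf5-positive cells of each library. A floor for free RNA is given above for Sox9 only. Osteogenic cells held little Sox5, 15, 5.47, 11.2 and 21.3 CPM from 31, 8, 21 and 25 UMIs, and Sox6 stood there at 34.3, 34.9, 35.2 and 49.5 CPM. Sox5 was also seen in glial cells, at 204 and 149 CPM in the E13.5 control and the library labelled G1KO, the only libraries with at least 20 such cells.

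Runx1 had a pattern of its own. It stood at 26.6, 67.6, 45.2 and 61.7 CPM in immature, 32.2, 84.9, 41.5 and 60.6 CPM in intermediate and 34.0, 83.3, 51.8 and 47.2 CPM in matrix-rich chondrocytes, but at 14.9, 16.4, 16.9 and 11.1 CPM in prehypertrophic ones. It was thus lower at the Ihh-positive stage in every library, with log2 ratios of -1.19 (95% interval -1.53 to -0.85) in the E13.5 and -2.35 (-2.75 to -1.97) in the E14.5 control. Interzone cells held 24.0, 40.8, 33.6 and 36.5 CPM, tendon cells 26.0, 48.3, 46.6 and 30.2 CPM and osteogenic cells 25.1, 36.2, 35.2 and 32.4 CPM. Macrophages, a blood lineage in which Runx1 is known to act, held 68.5, 112, 87.0 and 106 CPM, and erythroid cells 4.01, 6.91, 12.6 and 19.8 CPM.

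Runx2 marked the cells closest to bone. Osteogenic cells held 239 (218 to 261) and 143 (124 to 164) CPM in the E13.5 and E14.5 controls and 153 and 149 CPM in the other libraries. Prehypertrophic chondrocytes held 148, 62.7, 77.5 and 46.5 CPM, matrix-rich ones 83.2, 13.7, 18.4 and 21.1 CPM and immature ones 53.9, 7.34, 8.91 and 14.3 CPM. At E14.5 these formed a steep series in the control, whereas at E13.5 every chondrocyte stage carried Runx2. The interzone, with 12.2, 12.4, 11.3 and 25.0 CPM, lay below every chondrocyte stage at E13.5, but between immature and matrix-rich cells in the E14.5 control and the library labelled G1KO. Fibroblasts held 63.1, 55.1, 53.8 and 59.2 CPM, and the ungated cells 99.3, 36.1, 31.0 and 33.3 CPM, which made up 32.6% of all Runx2 UMIs at E13.5 and 17.3% in the E14.5 control, where these cells held 22.4 and 10.0% of all UMIs.

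Runx3, which shares the hypertrophy role with Runx2, leaned to cartilage. Its level in prehypertrophic chondrocytes was 159.9, 126, 99.8 and 36.8 CPM, in matrix-rich ones 96.2, 35.4, 34.8 and 32.2 CPM and in immature ones 51.0, 12.6, 11.5 and 12.5 CPM. Osteogenic cells held 103, 27.3, 29.3 and 32.4 CPM, and interzone cells 9.67, 13.6, 13 and 23.5 CPM. In the E14.5 control, 78.4% of Runx3 UMIs fell in the chondrocyte gates, against 48.4% of those of Runx2 and 60.8% of all UMIs. At E13.5 the shares were 61.4% for Runx3 and 43.9% for Runx2, both above the 32.2% of all UMIs.

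Sp7 (osterix), the zinc finger factor that osteoblasts require, was sparse and was seen in the same gates. It stood at 62.4, 30.5, 33.9 and 18.6 CPM in prehypertrophic chondrocytes, 42.5, 18.5, 29.9 and 23.9 CPM in osteogenic cells and 11.2, 2.05, 2.60 and 2.63 CPM in matrix-rich chondrocytes. In the interzone it was 1.48, 1.75, 1.89 and 3.5 CPM, from 17, 9, 10 and 7 UMIs. Dlx5, a homeobox factor upstream of Runx2 and Sp7, stood at 134, 97.7, 77.4 and 125 CPM in osteogenic cells, 138, 52.3, 55.6 and 22.0 CPM in prehypertrophic chondrocytes and 42.8, 6.61, 8.75 and 7.33 CPM in matrix-rich ones. Its neighbour Dlx6 was scarcer, at 22.7, 26.7, 16.5 and 25.6 CPM in osteogenic cells and 18.9, 6.90, 5.58 and 3.91 CPM in prehypertrophic chondrocytes, the latter from 134, 24, 27 and 23 UMIs. For Sp7, Dlx5 and Dlx6 alike, the prehypertrophic and osteogenic gates stood above the matrix-rich gate in each library.

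Mef2c, a MADS-box factor of muscle, vessels and hypertrophic cartilage, reached from the skeleton into other lineages. It stood at 674, 341, 465 and 269 CPM in prehypertrophic chondrocytes, 155, 84.6, 126 and 108 CPM in matrix-rich ones and 80.4, 96.3, 105 and 110.1 CPM in immature ones. The hypertrophic cells of the library labelled G1KO held 846 (784 to 910.4) CPM and those of the library labelled DCKO 590.3 (534 to 651) CPM. Osteogenic cells held 298, 154, 239 and 161 CPM and interzone cells 34.9, 58.3, 77.2 and 72.5 CPM. Myocytes held 411, 114, 210.5 and 99.4 CPM while muscle progenitors held 30.5, 18.9, 14.7 and 35.6 CPM, and endothelial cells held 235, 177, 301 and 303 CPM. Macrophages stood at 214, 256, 267 and 219.7 CPM. Mef2c counts summed over a library therefore mix skeletal and other sources.

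**Figure D1:**
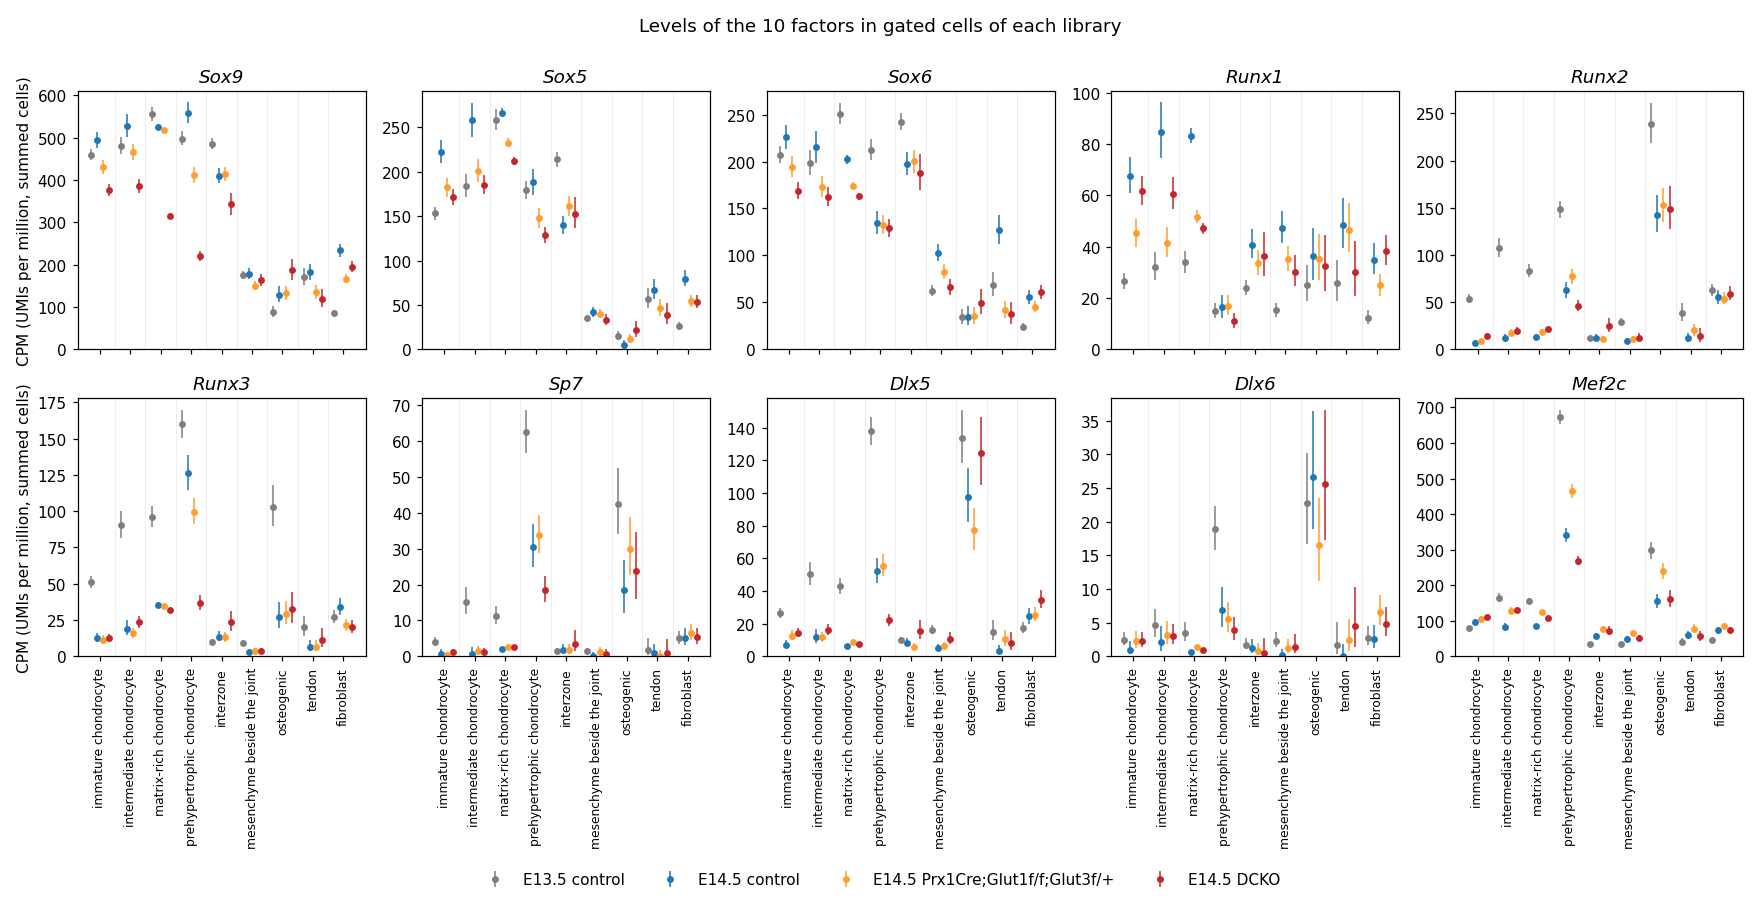
CPM of each of the 10 factors (1 panel per factor) in marker-gated cell groups. There is 1 coloured point per library, with bars for the 95% Poisson interval of the count. Sox9 stays near 526 CPM in the chondrocyte gates of the E14.5 control, whereas Runx2 runs from 7.34 CPM in immature chondrocytes to 143 CPM in osteogenic cells.

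The step from matrix-rich to prehypertrophic chondrocytes shows which factors go with the start of hypertrophy. A gene was called higher or lower when the sums differed by at least 1.5-fold and 1 of them held at least 20 UMIs. At E13.5, 6 of 10 factors were higher and 1 lower in prehypertrophic cells, against 7.57% higher and 11.9% lower among the 11221 genes compared. At E14.5, 6 were higher and 2 lower, against 9.95% and 25.9% of 13330 genes. The share of factors that rose was thus far above the share of all genes at either age. The median log2 ratio of the factors was 0.78 in the E13.5 and 1.92 in the E14.5 control, beside -0.062 and -0.16 for all genes.

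The 6 factors that rose were Runx2, Runx3, Sp7, Dlx5, Dlx6 and Mef2c, all known promoters of hypertrophy or bone. Runx2 rose by a log2 ratio of 0.83 (95% interval 0.69 to 0.98) in the E13.5 and 2.20 (1.96 to 2.43) in the E14.5 control. For Runx3 the ratio was 0.73 in the E13.5 and 1.83 in the E14.5 control, and for Sp7 2.47 and 3.90. Over the alternatives the step of Sp7 went as low as 1.32 at E13.5 and as high as 5.43 at E14.5. Dlx5 gave 1.69 and 2.99, and Mef2c 2.12 and 2.01. The steps of Runx2, Runx3, Sp7 and Dlx5 were steeper at E14.5, where their matrix-rich level was lower by more than their prehypertrophic level. Thinning every cell to 2000 UMIs left 17 prehypertrophic cells in the E14.5 control, and Runx2 then gave 1.13 at E14.5 and 0.29 at E13.5, the latter short of 1.5-fold, as was Runx3 at E13.5 with 0.48.

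The comparison of the controls asks how the factors differ between E13.5 and E14.5 within 1 kind of cell. In matrix-rich chondrocytes 1 factor rose and 6 fell of 10, against 10.4% higher and 13.7% lower among 13338 genes. In prehypertrophic chondrocytes 0 rose and 6 fell, against 6.09% and 22% of 10763 genes. Falls of the factors were more frequent than falls of all genes in both stages. The median log2 ratio of E14.5 over E13.5 was -1.16 for the factors in matrix-rich cells (all genes -0.11) and -0.82 in prehypertrophic cells (all genes -0.19). TMM scaling factors would raise these log2 ratios by 0.14 and 0.14.

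The factors of hypertrophy and bone were lower at E14.5. In matrix-rich cells Runx2 fell from 83.2 to 13.7 CPM, a log2 ratio of -2.61 (95% interval -2.78 to -2.43). Runx3 fell from 96.2 to 35.4 CPM (log2 ratio -1.44, interval -1.58 to -1.31), and Dlx5 from 42.8 to 6.61 CPM (log2 ratio -2.70, interval -2.94 to -2.45). Sp7, Dlx6 and Mef2c fell as well, with log2 ratios of -2.46, -2.35 and -0.87. Immature chondrocytes showed the same for Runx2, from 53.9 to 7.34 CPM (log2 ratio -2.87, interval -3.39 to -2.40), and for Runx3, from 51.0 to 12.6 CPM (log2 ratio -2.02, interval -2.42 to -1.65).

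At the prehypertrophic stage the same factors, apart from Mef2c, were lower by less. Runx2 went from 148 to 62.7 CPM, a log2 ratio of -1.24 (95% interval -1.46 to -1.03), and Runx3 from 159.9 to 126 CPM (log2 ratio -0.34, interval -0.50 to -0.18). The ratio of Runx3 did not reach 1.5-fold, but was -0.66 as a mean over cells, -1.01 without cells of several lineages and of the most UMIs and -1.45 with thinned cells. Dlx5 and Dlx6 fell too, with log2 ratios of -1.40 and -1.45, which went as low as -2.75 and -2.33 over the alternatives. Mef2c fell from 674 to 341 CPM (log2 ratio -0.98, interval -1.08 to -0.89), and Sox6 from 213 to 134 CPM (log2 ratio -0.66, interval -0.82 to -0.51), the latter short of 1.5-fold under TMM scaling (-0.53). Sp7 fell from 62.4 to 30.5 CPM (log2 ratio -1.03, interval -1.35 to -0.73), but with cells thinned to 2000 UMIs its ratio turned to 0.73. The gate itself differed between the ages, since Ihh, which defines it, stood at 532 and 250.1 CPM in these cells.

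Runx1 went the other way. It rose in matrix-rich chondrocytes from 34.0 (29.9 to 38.4) to 83.3 (80.3 to 86.3) CPM, a log2 ratio of 1.29 (95% interval 1.11 to 1.48). The rise was shared by intermediate (1.40) and immature chondrocytes (1.34), by the interzone (0.77), by mesenchyme beside the joint (1.63) and by fibroblasts (1.49). Cartilage matrix genes were higher in the last 3 groups too, with 13 higher and 0 lower of 14 (median 1.59) in the interzone, 7 higher and 0 lower of 13 (median 0.74) in mesenchyme beside the joint and 14 higher and 0 lower of 14 (median 3.26) in fibroblasts, against 9.38, 9.66 and 9.80% of all genes higher, so Runx1 of cartilage origin cannot be told apart there. Prehypertrophic chondrocytes were an exception, at 14.9 and 16.4 CPM with a log2 ratio of 0.13 (-0.36 to 0.61). That ratio was -0.44 without cells of several lineages and of the most UMIs. Under gates of 1 UMI or marker fewer it was 0.61, past 1.5-fold, so the exception depends on the gate.

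Sox9 moved little in cartilage, with log2 ratios of -0.081 (95% interval -0.13 to -0.032) in matrix-rich and 0.17 (0.086 to 0.25) in prehypertrophic cells, the latter -0.26 with thinned cells. In fibroblasts it rose from 85.8 to 234 CPM (log2 ratio 1.45, interval 1.29 to 1.60), where Sox5 went from 26.2 to 79.5 CPM and Hapln1, a cartilage link protein gene, from 31.2 to 345 CPM. The fibroblast gate of the E14.5 control thus held more cartilage transcript of several kinds, and whether this was free RNA was not tested. Sox5 in immature chondrocytes gave a log2 ratio of 0.54.

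In the interzone 2 factors rose and 1 fell of 9 with enough UMIs, against 9.38% higher and 11% lower of 12208 genes. Runx1 rose from 24.0 to 40.8 CPM and Mef2c from 34.9 to 58.3 CPM (log2 ratio 0.74, interval 0.52 to 0.96), the latter 0.40 with thinned cells. Sox5 fell from 214 to 139.6 CPM (log2 ratio -0.62, interval -0.74 to -0.50), but under gates of 1 UMI or marker fewer its ratio was -0.16. Runx2 was 12.2 and 12.4 CPM (log2 ratio 0.029, interval -0.42 to 0.47), unlike in the chondrocytes around it. Under gates of 1 UMI or marker fewer the ratio was -0.63. No floor for free RNA is given for Runx2, and how much of these low values was free RNA at either age was not tested. In osteogenic cells 0 factors rose and 5 fell of 10, against 7.31% and 16.7% of 8600 genes. Cartilage matrix genes gave 8 higher and 0 lower of 12 (median 0.77) in the same gate. Runx2 fell there from 239 to 143 CPM (log2 ratio -0.74, interval -0.98 to -0.51) and Runx3 from 103 to 27.3 CPM, while Dlx6 was 22.7 and 26.7 CPM (log2 ratio 0.23, interval -0.42 to 0.87).

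Genes around the factors were followed as lists, each by the number past 1.5-fold and the median log2 ratio, to be read against the shares of all genes given above. From E13.5 to E14.5 in matrix-rich cells, the cartilage matrix genes known as Sox9 targets gave 13 higher and 0 lower of 14 (median 1.08), among them Hapln1, a link protein of the matrix, from 416 to 965 CPM, and Comp, from 45.8 to 212 CPM. Sox9 itself did not rise in these cells. The list includes Col2a1 and Matn1, which define the gate. Genes known as Runx2 or Sp7 targets in bone and hypertrophic cartilage gave 1 higher and 3 lower of 6 (median -1.52) in matrix-rich and 1 higher and 6 lower of 8 (median -1.77) in prehypertrophic cells, where Ifitm5, an osteoblast membrane protein gene, fell from 105 to 22.1 CPM. Other Sox genes gave 0 higher and 4 lower of 6 (median -0.86) in matrix-rich cells, with Sox4, a factor of progenitor cells, falling from 159.9 to 60.5 CPM, and Sox11 from 324 to 158 CPM.

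Partners of Runx proteins (Cbfb, Tle and related genes) gave 0 higher and 3 lower of 8 (median -0.35) in matrix-rich cells, and Cbfb, their shared subunit, was 53.8 to 43.8 CPM. Other Dlx and Msx genes gave 0 higher and 3 lower of 4 (median -1.20), with Dlx3 falling from 6.83 to 1.86 CPM. Other Mef2 genes and class IIa deacetylases, which hold Mef2 proteins in check, gave 3 higher and 1 lower of 7 (median 0.12). Chondrocyte regulators and Sox9 partners gave 3 higher and 0 lower of 10 (median -0.055), and osteoblast regulators 1 higher and 2 lower of 9 (median -0.10). Twist2, which restrains Runx2 activity, fell from 80.0 to 11.5 CPM in the same cells in which Runx2 fell. In prehypertrophic cells the same lists gave 0 higher and 4 lower of 6 (median -0.64) for other Sox genes, 0 higher and 2 lower of 8 (median -0.39) for Runx partners, 1 higher and 0 lower of 4 (median -0.28) for other Dlx and Msx genes and 0 higher and 4 lower of 6 (median -0.76) for other Mef2 genes and deacetylases. Chondrocyte regulators there gave 2 higher and 1 lower of 9 (median 0.16), osteoblast regulators 1 higher and 2 lower of 10 (median -0.42) and cartilage matrix genes 10 higher and 1 lower of 14 (median 0.90). Whether any list differed between the stages was not tested.

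The mutant libraries were set beside the E14.5 control to ask how the factors stood when glucose transporters were targeted. Both comparisons share that 1 control library. For the library labelled G1KO, 1 factor rose and 1 fell of 10 in matrix-rich chondrocytes, against 4.31% higher and 5.62% lower of 13632 genes. The factor that rose was Dlx6, at 3.48, 0.682, 1.33 and 0.901 CPM and from 25 and 48 UMIs in the pair compared, and with thinned cells its ratio turned to -0.078. Runx1 fell from 83.3 (80.3 to 86.3) to 51.8 (49.4 to 54.2) CPM, a log2 ratio of -0.69 (95% interval -0.77 to -0.60). In prehypertrophic chondrocytes 0 rose and 0 fell, against 7.48% and 8.09% of 9631 genes. With thinned cells, which leave 17 and 34 prehypertrophic cells in this pair, ratios past 1.5-fold did appear, among them 2.17 for Runx2, 1.13 for Mef2c, 1 for Dlx5, -1.42 for Sp7 and -2.81 for Sox6, and Runx1 was -0.61 under gates of 1 UMI or marker fewer.

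Several factors of that library stood short of 1.5-fold in cartilage. Sox9 was 559 and 412 CPM in prehypertrophic cells (log2 ratio -0.44, interval -0.53 to -0.35) and 526 and 518 CPM in matrix-rich cells (log2 ratio -0.023, interval -0.052 to 0.006). Mef2c was 84.6 and 126 CPM in matrix-rich cells (log2 ratio 0.57, interval 0.50 to 0.64), past 1.5-fold under TMM scaling at 0.65. Runx2 was 13.7 and 18.4 CPM in matrix-rich cells (log2 ratio 0.43, interval 0.26 to 0.60), and 0.87 with thinned cells. The median log2 ratio of the 10 factors was 0.16 in matrix-rich and 0.014 in prehypertrophic cells, beside -0.098 and -0.046 for all genes. In osteogenic cells 3 factors rose and 1 fell of 10, against 5.81% and 5.26% of all genes. That gate itself differed, since Ibsp, one of its markers, was far higher in the library labelled G1KO, as given above. How this bears on the osteogenic ratios was not tested. Mef2c rose from 154 to 239 CPM (log2 ratio 0.63, interval 0.40 to 0.87) and Sp7 from 18.5 to 29.9 CPM (log2 ratio 0.70, interval 0.008 to 1.41), while Sox5, from 8 and 21 UMIs, had a ratio of 1.04 (-0.20 to 2.42) and Dlx6, the factor that fell, one of -0.69 (-1.42 to 0.029), both with intervals that include 0.

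For the library labelled DCKO, 1 factor rose and 2 fell of 10 in matrix-rich chondrocytes, against 5.08% higher and 12.6% lower of 13736 genes. In prehypertrophic chondrocytes 0 rose and 5 fell, against 8.12% and 18.9% of 9773 genes, so falls were more frequent among the factors than among all genes. The factors had a median log2 ratio of 0.006 in matrix-rich and -0.64 in prehypertrophic cells, beside -0.16 and -0.17 for all genes. TMM scaling would raise these log2 ratios by 0.15 and 0.25, which brings the number of factors that fell to 1 in matrix-rich and 3 in prehypertrophic cells. Over the 8 alternatives that number ran from 1 to 3 in matrix-rich and from 3 to 7 in prehypertrophic cells.

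Sox9 was lowest in that library through the later cartilage stages. Prehypertrophic cells held 498 (482 to 515), 559 (535 to 585), 412 (394 to 430.3) and 219.9 (208 to 232) CPM, and the log2 ratio of DCKO over the E14.5 control was -1.35 (95% interval -1.45 to -1.24). Matrix-rich cells held 556 (539.6 to 574), 526 (519 to 534), 518 (510.4 to 525) and 316 (311 to 322) CPM, with a ratio of -0.73 (-0.77 to -0.70) that came to -0.58 under TMM scaling, just short of 1.5-fold. The difference was smaller toward the earlier stages, at -0.45 in intermediate and -0.40 (-0.47 to -0.32) in immature chondrocytes, and -0.25 (-0.38 to -0.13) in the interzone, where thinned cells turned it to 0.23. In osteogenic cells Sox9 was 129 and 187 CPM (log2 ratio 0.53, interval 0.25 to 0.82), in a gate where cartilage matrix genes gave 6 higher and 0 lower of 12 (median 0.60), against 4.16% higher of all genes. Against the library labelled G1KO, whose Slc2a1 level was also high, the ratio was -0.91 (-1.01 to -0.80) in prehypertrophic and -0.71 (-0.74 to -0.68) in matrix-rich cells.

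Sox9 was also read along a finer scale, with matrix-rich cells split by Matn1 share into below 10, 10 to 20, 20 to 40 and at least 40 UMIs per 10000, a split chosen after the values were seen. In the E14.5 control Sox9 stood at 514, 538, 529 and 488 CPM along these steps, and in the library labelled G1KO at 513, 521, 527 and 472 CPM. The library labelled DCKO gave 363, 327, 289 and 226 CPM, lower at every step. The E13.5 control gave 554, 560.3, 554 and 609.7 CPM, the last from 15 cells. Runx1 in the library labelled DCKO went down the same steps, at 58.2, 49.6, 40.1 and 30.7 CPM against 92.9, 96.0, 74.7 and 66.5 CPM in the control and 47.0, 57.5, 50.7 and 48.0 CPM in the library labelled G1KO. Mef2c was lower in cells with more Matn1 in all 3 E14.5 libraries, at 95, 90.1, 79.9 and 70.5 CPM in the control, 138, 138, 115 and 70.3 CPM in the library labelled G1KO and 136, 122, 84.1 and 50.7 CPM in the library labelled DCKO. Runx2 was highest at the last step in both mutant libraries, at 14.8, 14, 21 and 40.4 CPM in the library labelled G1KO and 17.5, 18.4, 24.1 and 33.2 CPM in the library labelled DCKO, and stood at 16, 11.3, 14.3 and 14.2 CPM, without such an order, in the control. At E13.5 Runx2 was 94.9, 72.1, 56.8 and 42.8 CPM and so was lower in cells with more Matn1.

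**Figure D2:**
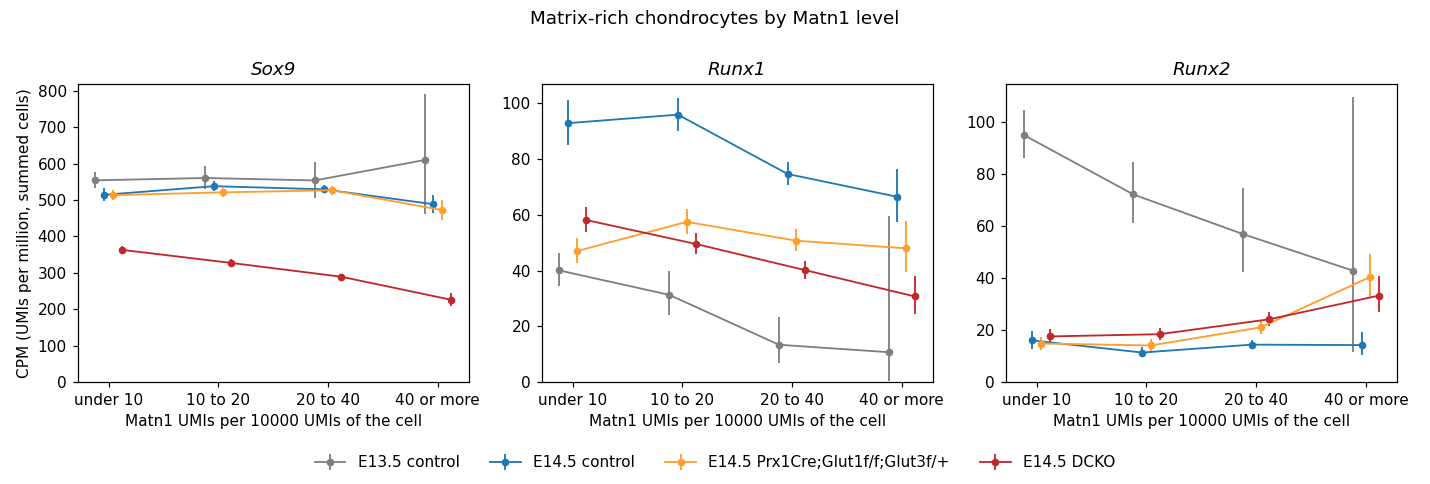
CPM of Sox9, Runx1 and Runx2 (1 panel each) in matrix-rich chondrocytes against the share of Matn1 in the UMIs of a cell. There is 1 line per library, with bars for the 95% Poisson interval. Sox9 goes from 363 to 226 CPM in the library labelled DCKO and from 514 to 488 CPM in the E14.5 control.

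Of the partners, Sox5 was 266 and 212 CPM in matrix-rich cells of the control and of the library labelled DCKO (log2 ratio -0.33, interval -0.37 to -0.29), and 188 and 128 CPM in prehypertrophic cells (log2 ratio -0.55, interval -0.70 to -0.40), neither at 1.5-fold, although under stricter gates the latter was -0.72. Sox6 was 134 and 129 CPM in prehypertrophic cells (log2 ratio -0.055, interval -0.22 to 0.11). In prehypertrophic cells Sox9 was thus lower by far more than Sox6. In matrix-rich cells Sox6 gave -0.31, and in immature cells the trio was alike, with -0.40 for Sox9, -0.37 for Sox5 and -0.42 for Sox6. In tendon cells Sox6 fell from 127 CPM in the control to 37.3 CPM (log2 ratio -1.77, interval -2.27 to -1.29), and the library labelled G1KO held 42.3 CPM there (log2 ratio -1.59, interval -1.95 to -1.24). Cartilage matrix genes gave 0 higher and 9 lower of 14 (median -0.62) and chondrocyte regulators 0 higher and 5 lower of 7 (median -0.71) in tendon cells of the library labelled DCKO, against 16.1% lower of all genes. In the library labelled G1KO the matrix genes gave 0 higher and 2 lower of 14 (median 0.001) and the regulators 0 higher and 2 lower of 7 (median -0.40), against 10.7% lower. The difference between these libraries was not tested.

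With the main settings, Runx3 had the lowest ratio of the 10 factors in prehypertrophic cells. Over the alternatives Sp7 went as low as -3.12 and Runx3 as low as -2.12. Runx3 stood at 159.9 (151 to 169), 126 (115 to 139), 99.8 (91.1 to 109) and 36.8 (32.0 to 42.0) CPM, a log2 ratio of DCKO over control of -1.78 (95% interval -2.02 to -1.54). Matrix-rich cells showed no such gap, at 96.2, 35.4, 34.8 and 32.2 CPM (log2 ratio -0.14, interval -0.25 to -0.026), so the step into the prehypertrophic stage, 1.83 in the control, was 0.19 (-0.021 to 0.40) in the library labelled DCKO. With thinned cells the step of the control was 0.72, and that of the library labelled DCKO was not computed. The thinned ratio of DCKO over control in prehypertrophic cells was -2.12. Dlx5 fell from 52.3 to 22.0 CPM in prehypertrophic cells (log2 ratio -1.25, interval -1.59 to -0.92). Sp7 fell from 30.5 to 18.6 CPM (log2 ratio -0.72, interval -1.11 to -0.32) and Dlx6 from 6.90 to 3.91 CPM (log2 ratio -0.82, interval -1.71 to 0.070), and these were the 2 that no longer passed under TMM scaling. Without cells of several lineages and of the most UMIs, the ratio of Dlx6 turned to 0.060 and that of Sp7 was -0.43.

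Runx2 differed less than Runx3. In prehypertrophic cells it was 62.7 and 46.5 CPM in the control and the library labelled DCKO (log2 ratio -0.43, interval -0.69 to -0.17), short of 1.5-fold, but under stricter gates the ratio was -0.63 and with thinned cells it turned to 0.46. In matrix-rich cells Runx2 rose from 13.7 to 21.1 CPM (log2 ratio 0.63, interval 0.47 to 0.79), in immature cells from 7.34 to 14.3 CPM (log2 ratio 0.96, interval 0.42 to 1.53) and in the interzone from 12.4 to 25.0 CPM (log2 ratio 1.01, interval 0.44 to 1.56). With thinned cells the ratio in immature cells was 0.25. The contrast between stages was flatter without thinning, with a prehypertrophic to matrix-rich log2 ratio of 1.14 in place of 2.20. Thinned cells of the control gave 1.13. The thinned step of the library labelled DCKO was not computed, so thinned steps cannot be compared. Runx1 fell in matrix-rich cells from 83.3 to 47.2 CPM (log2 ratio -0.82, interval -0.90 to -0.74), near the value of the library labelled G1KO, and in immature cells it was 67.6 and 61.7 CPM (log2 ratio -0.13, interval -0.33 to 0.070). Mef2c was 341 and 269 CPM in prehypertrophic and 84.6 and 108 CPM in matrix-rich cells, with log2 ratios of -0.34 and 0.35, the former 0.39 with thinned cells.

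In the interzone of the library labelled DCKO 3 factors rose and 0 fell of 8, against 3.81% higher and 16.2% lower of 10695 genes. The 3 were Runx2, Runx3, from 13.6 to 23.5 CPM (log2 ratio 0.79, interval 0.22 to 1.34), and Dlx5, from 8.36 to 15.5 CPM (log2 ratio 0.89, interval 0.17 to 1.59). Under gates of 1 UMI or marker fewer the ratio of Runx3 was 0.37. This gate held 221 cells in the library labelled DCKO against 588 in the control, with Osr2 at 112 and 253 CPM. In osteogenic cells 1 factor rose and 0 fell of 10, against 4.16% and 9.12% of 7387 genes, and that factor, Sox5, rests on 8 UMIs in the control and had a ratio of 0.55 without cells of several lineages and of the most UMIs. Runx2 there was 143 and 149 CPM (log2 ratio 0.064, interval -0.23 to 0.36) and Dlx5 97.7 and 125 CPM.

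**Figure D3:**
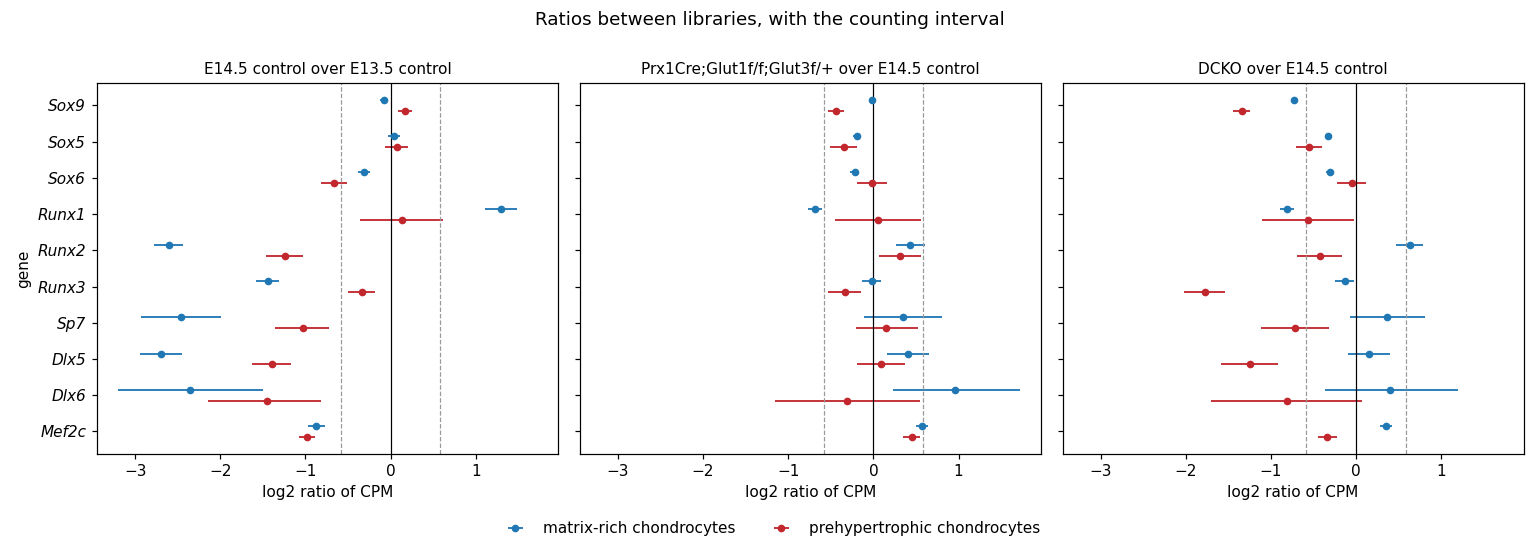
Log2 ratios of the 10 factors in matrix-rich and prehypertrophic chondrocytes for E14.5 over E13.5 control and for each mutant library over the E14.5 control. Bars are 95% intervals of counting error and lines mark 1.5-fold. In prehypertrophic cells of the library labelled DCKO, Runx3 lies at -1.78 and Sox9 at -1.35, whereas Runx2 lies at -0.43.

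The lists around the factors are read against the 8.12% of all genes that were higher and 18.9% that were lower in prehypertrophic cells of the library labelled DCKO. In prehypertrophic cells the chondrocyte regulators and Sox9 partners gave 0 higher and 6 lower of 8 (median -0.62), among them Wwp2, the host gene of the cartilage microRNA miR-140 and known as a Sox9 target, from 375 to 229.9 CPM, and Foxc1, a chondrocyte forkhead factor, from 73.6 to 23.7 CPM. Other Dlx and Msx genes gave 0 higher and 3 lower of 4 (median -2.35), with Dlx3 falling from 22.1 to 4.60 CPM beside Dlx5. Osteoblast regulators gave 0 higher and 4 lower of 9 (median -0.51), with Bhlhe40, a factor of the hypoxia response, from 48.6 to 12.4 CPM. Cartilage matrix genes gave 0 higher and 3 lower of 14 (median -0.37), with Matn3 falling from 267 to 98.9 CPM, while Comp was 654 to 681 CPM. The share of matrix genes that were lower was thus near that of all genes, and most of the matrix targets stayed within 1.5-fold of the control in the cells in which Sox9 fell.

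Bone and hypertrophic cartilage genes were split, with 4 higher and 2 lower of 8 (median 0.41) in prehypertrophic cells. Vegfa, the vessel growth factor of hypertrophic cartilage, rose from 31.0 to 59.1 CPM, and Alpl, the phosphatase of mineralizing cells, from 0.862 to 4.26 CPM. Spp1 (osteopontin) fell from 93.4 to 3.40 CPM and Ifitm5 from 22.1 to 8.34 CPM. Ihh, the marker of the gate, was 250.1 to 233 CPM. Other Sox genes gave 0 higher and 2 lower of 5 (median -0.40), Runx partners 0 higher and 2 lower of 8 (median -0.38), and other Mef2 genes and class IIa deacetylases 1 higher and 0 lower of 5 (median 0.036). In matrix-rich cells the chondrocyte regulators gave 0 higher and 4 lower of 10 (median -0.56), with Wwp2 falling from 793 to 443 CPM, the cartilage matrix genes 0 higher and 2 lower of 14 (median -0.28) and the Runx partners 0 higher and 0 lower of 8 (median -0.14), against 5.08% higher and 12.6% lower of all genes.

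For the library labelled G1KO, prehypertrophic cells gave 0 higher and 2 lower of 8 (median -0.17) for chondrocyte regulators and 0 higher and 3 lower of 14 (median -0.040) for cartilage matrix genes, against 7.48% higher and 8.09% lower of all genes. Bone and hypertrophic cartilage genes gave 4 higher and 0 lower of 7 (median 0.59), with Vegfa rising from 31.0 to 60.7 CPM and Spp1 at 93.4 to 91.3 CPM. Other Dlx and Msx genes gave 1 higher and 1 lower of 4 (median -0.30) there. The higher one was Msx1, a homeobox factor of limb mesenchyme, which went from 27.9 to 53.1 CPM.

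Transcripts of other sources differed between the same libraries and are given beside these results. In prehypertrophic cells the summed immediate-early genes, which rise during dissociation, stood at 1960.2, 4358, 2166 and 2234 CPM, and in matrix-rich cells at 2484, 3580.3, 3761 and 3589 CPM. Haemoglobin genes summed to 69.9, 43.7, 20.7 and 10.7 CPM in prehypertrophic and 91.0, 70.8, 43.3 and 24.0 CPM in matrix-rich cells, a trace of red cell transcript. Whether it was free RNA was not tested. Glial markers summed to 68.7, 19.5, 49.6 and 56.8 CPM in prehypertrophic cells. The E14.5 control had the most immediate-early transcript in its prehypertrophic cells and the library labelled DCKO the least haemoglobin, and their part in the values of the 10 factors was not tested.

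Whether factors of cartilage and of hypertrophy were seen in 1 cell was read from cells thinned to 2000 UMIs, so that depth was alike. Cells of several lineages, which may be doublets, were not left out of these shares. Sox9 and Runx2 were both detected in 16.1, 7.36, 7.49 and 3.77% of prehypertrophic chondrocytes and 5.44, 4.74, 5.95 and 7.21% of osteogenic cells. Erythroid cells, which should lack both, gave 0.505, 0.0430, 0.202 and 0.209%. At E13.5 the interval of prehypertrophic cells, 13.3 to 19.4%, lay above the erythroid limit of 3.57%. In the library labelled DCKO the few erythroid cells gave an upper limit of 9.43%, above the prehypertrophic share, and the intervals also overlapped in the other E14.5 libraries. These intervals take the expected number of thinned cells as the count, and the difference of the shares was not tested. Without thinning, at medians of 10810, 18898.5, 19076 and 16051 UMIs in prehypertrophic and 7604, 8856, 8030 and 7893.5 in erythroid cells, the shares for Sox9 and Runx2 were 69.5, 54.6, 64.3 and 46.0% and 6.21, 1.09, 4.48 and 7.14%. At 2000 UMIs, of the Runx2-positive prehypertrophic cells of the E14.5 control, 65.4% also held Sox9, beside 61.4% of all its prehypertrophic cells, so Sox9 was no rarer in the cells with Runx2.

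Other pairs set the range. Sox9 and Sox5 were both detected in 26.6, 25.1, 23.1 and 16.1% of matrix-rich cells at 2000 UMIs, against 1.40, 1.17, 5.34 and 0.787% of erythroid cells. Sox9 and Runx3 were both detected in 17.1, 12.1, 9.36 and 2.33% of prehypertrophic cells, lowest in the library labelled DCKO, where Sox9 was detected in 33.9% and Runx3 in 6.20%. Runx2 and Mef2c were both detected in 19.1, 6.30, 8.68 and 4.41% of prehypertrophic and 15, 7.08, 9.65 and 7.52% of osteogenic cells, and Runx2 and Dlx5 in 9.43, 5.0, 6.15 and 5.33% of osteogenic cells. Runx2 and Sp7 were both detected in 3.15, 0.887, 1.2 and 0.568% of prehypertrophic cells, in which Sp7 itself was detected in 11.1, 5.70, 6.12 and 3.62%. In erythroid cells the shares were 0.338, 0.122, 0.220 and 0.357% for Sox9 and Runx3, and 0.214, 0.0240, 0.181 and 0.187% for Runx2 and Mef2c.

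Genes of like pattern were named for each factor, at most 3, by the highest Pearson r of log2(CPM + 1) over 47 profiles, each a cell group of at least 100 cells in 1 library, among 4815 genes with at least 50 CPM in 1 profile. Profiles share libraries, so r is a description without a p. Sox9 was most like Arhgef1 (0.950), Rarg (0.947) and Nfatc2 (0.945), and Sox5 most like Papss2 (0.938), Wwp2 (0.932) and Chadl (0.922), which include the cartilage genes Papss2 and Wwp2. For Sox6 the nearest were Sox9 (0.937), Sox5 (0.914) and Arhgef1 (0.906), so the Sox trio lay close together. Runx2 was most like Dlx5 (0.947) and Sp7 (0.879), and Dlx5 most like Runx2 (0.947), Sp7 (0.883) and Ptch1 (0.860). Sp7 was near Dlx5 (0.883) and Runx2 (0.879). Runx3 was most like Ptch1 (0.885), Sp7 (0.841) and Runx2 (0.840), where Ptch1 is the receptor and known target of Ihh. The nearest to Dlx6 were Dlx5 (0.914), Runx2 (0.827) and Sp7 (0.802). Runx1 had weaker likeness, with Pdcd4 (0.837), Ifi27 (0.827) and Ccser2 (0.819), and so did Mef2c, with Fabp3 (0.852), Plec (0.769) and Klf5 (0.741). Between members, r was 0.895 for Sox9 with Sox5 and 0.302 for Sox9 with Runx2.

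The identifiers of the 10 genes in the files matched the annotation, and positions are those of GRCm38. The annotation placed Sox9 (ENSMUSG00000000567) at chr11:112782224-112787760 on the plus strand, Sp7 (ENSMUSG00000060284) at chr15:102356606-102367182 on the minus strand and Mef2c (ENSMUSG00000005583) at chr13:83504034-83667080 on the plus strand. The large Sox genes were Sox5 (ENSMUSG00000041540) at chr6:143828425-144781977 on the minus strand and Sox6 (ENSMUSG00000051910) at chr7:115470872-116038796 on the minus strand. The Runx genes were Runx1 (ENSMUSG00000022952) at chr16:92601466-92826149 on the minus strand, Runx2 (ENSMUSG00000039153) at chr17:44495987-44814797 on the minus strand and Runx3 (ENSMUSG00000070691) at chr4:135120652-135177990 on the plus strand. Dlx5 and Dlx6 are neighbours, 9236 bp apart, with Dlx5 (ENSMUSG00000029755) at chr6:6877805-6882085 on the minus strand and Dlx6 (ENSMUSG00000029754) at chr6:6863334-6868568 on the plus strand. Sox9, Sp7, Dlx5 and Mef2c overlap no other annotated gene. Runx2 overlaps Supt3 and antisense genes on the opposite strand, Dlx6 lies within the antisense gene Dlx6os1, and Sox5, Sox6, Runx1 and Runx3 each overlap at least 1 antisense gene. Whether counting kept the strands apart was not given in the sources used here, so counts of these 6 factors may hold reads of these neighbours if it did not.

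Promoter windows, from 250 bases before to 50 after a transcript start, came from RefSeq (GRCm38.p6) and held 15 windows of 6 members: Sox5, Sox6, Runx1, Runx2, Runx3 and Mef2c. Sox9, Sp7, Dlx5 and Dlx6 had no window in the set used here. The 3 Runx genes share a stretch with a repeated ACCACA, the core that Runx proteins bind, and it is shown because the family is known for binding its own promoters. Capitals mark the cores.
Runx1: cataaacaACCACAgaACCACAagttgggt
Runx2: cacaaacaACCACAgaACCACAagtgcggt
Runx3: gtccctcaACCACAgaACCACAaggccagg
The Runx1 sequence lies at chr16:92826025-92826054 on the minus strand, that of Runx2 at chr17:44814583-44814612 on the minus strand and that of Runx3 at chr4:135120503-135120532 on the plus strand. The first core begins 29 bases after the RefSeq start of Runx1, 24 after that of Runx2 and at position -134 relative to that of Runx3. The shared stretch of 18 bases, looked for after the sequences were seen, occurs on either strand in 4 of 32851 windows (0.0122%), the fourth being that of Gm16225. ACCACA occurs on either strand in 16.8% of all windows, and in a pair within 10 bases in 0.116%.

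Other cores were searched on both strands in the same 15 windows, 7 motifs in all. ACAAAG and ACAATG, cores that Sox proteins bind, were in 7 and 3 of them, against 18.7% and 12.6% of all windows. Those with ACAAAG were all windows of Mef2c and Sox6, which have 3 and 6 of the 15 windows. Those with ACAATG were windows of Sox5 and Sox6. A gene with several windows counts more than once in these numbers. TAATTA, a homeobox core, was in 1 (5.29% of all windows), and TAATT, contained in it, in 5 (27%). GGGCGG, bound by Sp proteins, was in 3 (35.7%), and the MEF2 motif in 1 (3.19%), a window of Sox6. A match here describes letters and is neither a site nor a cause.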

How the data were processed

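Single-cell RNA was measured in 4 libraries, 1 for each group of age and genotype. The counts of UMIs per gene and cell were deposited by the authors as whole numbers that were not normalized, made per the file headers with Cell Ranger 6.1.2, and the submitters' processing notes name Seurat 3 and mm10. Cells of 200 to 6000 genes and at most 10% mt- UMIs were kept. The libraries held 100344565, 84188147, 97110697 and 91574038 UMIs.

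Cells were gated by marker UMIs in a fixed order: 8 lineages from outside limb mesenchyme, then hypertrophic, prehypertrophic, interzone, osteogenic and tendon cells, chondrocytes by Matn1, mesenchyme beside the joint (at least 5 UMIs of Sfrp2 without Gdf5) and fibroblasts. The intermediate chondrocyte stage was added, and the results followed through every alternative were picked, after values were seen. UMIs were summed by gate and library and scaled to CPM, with exact Poisson intervals. Ratios of sums had exact conditional binomial intervals and shares had Clopper-Pearson intervals, all at 95% and for counting error only. Groups of fewer than 20 cells were not printed, apart from 1 Matn1 step and thinned cells. Thinned shares are exact expectations at 2000 UMIs, and their intervals take the expected number of cells, which need not be whole, as the count. The ratio step was tested on simulated data.

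Named genes were the 10 factors, Slc2a1 and Slc2a3, markers outside the gates, at most 6 genes from each of 8 lists (other Sox genes; Runx partners; other Dlx and Msx genes; other Mef2 genes and class IIa deacetylases; chondrocyte regulators and Sox9 partners; osteoblast regulators; cartilage matrix genes; bone and hypertrophic cartilage genes), and for each factor the 3 genes with the highest r, of which some results are not reported here. Sex-linked genes, immediate-early genes, markers of other lineages and Rspo3 were named outside this rule, after values were seen. Members and lists were chosen with earlier results of these data known. Alternatives were looser and stricter gates, 1000 to 6000 genes with at most 5% mt- UMIs, cells of several lineages and the 5% with the most UMIs left out, TMM factors, the mean over cells, cells thinned to 2000 UMIs, and a denominator without markers and matrix genes. Python 3.11.15, numpy 2.4.6, scipy 1.17.1, pandas 2.3.3, matplotlib 3.10.9, R 4.3.3 and edgeR 4.0.16 were used.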

Additional observations from a re-analysis of the deposited data

Results flagged for a closer look

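The following pairs of log2 ratios were picked out because 1 factor was past 1.5-fold in opposite directions in different cell groups under the same comparison, with both counting intervals clear of 0. The difference between the cell groups was not tested in any of them.

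From E13.5 to E14.5, Sox5 had 1.60 in fibroblasts and -1.45 in osteogenic cells, the latter from 31 and 8 UMIs and -0.31 with looser gates. Cartilage matrix genes in the same fibroblasts gave 14 higher and 0 lower of 14 (median 3.26), against 9.80% higher of all genes. Sox6 had 1.21 in fibroblasts and -0.66 in prehypertrophic chondrocytes, the latter -0.21 with thinned cells. Mef2c had 0.74 in the interzone (0.40 with thinned cells) and -1.02 in intermediate chondrocytes.

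For the library labelled DCKO over the E14.5 control, Sox5 had 1.96 in osteogenic cells and -0.78 in tendon cells, where cartilage matrix genes gave 6 higher and 0 lower of 12 (median 0.60) and 0 higher and 9 lower of 14 (median -0.62), against 4.16% higher and 16.1% lower of all genes. The osteogenic ratio was 0.55 without cells of several lineages and of the most UMIs. Runx3 had 0.79 in the interzone (0.37 with looser gates) and -1.78 in prehypertrophic chondrocytes. Sp7 had 0.72 in ungated cells and -0.72 in prehypertrophic chondrocytes, the latter -0.47 with TMM. Dlx5 had 1.13 in mesenchyme beside the joint and -1.25 in prehypertrophic chondrocytes.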

How the results depend on the processing

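No paired analysis was possible because each group holds 1 library and the labels pair none of them. Of 937 recomputed log2 ratios for 119 results, 732 stayed within the counting interval of the value reported, 201 left it or changed sign from a value short of 1.5-fold, and 4 changed sign from a value past 1.5-fold. Thinning to 2000 UMIs moved 72 of the 104 results it gave (no UMIs or cells were left for the others), TMM scaling 32, looser gates 33, stricter gates 25, the stricter cell filter 1 and the other denominator 0. Leaving out cells of several lineages and of the most UMIs moved 19, and the mean over cells also 19.

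In all, 69 values of 41 results changed sign, 65 of them from a ratio short of 1.5-fold and 24 under thinning. Among the former, thinning gave 0.46 for Runx2 and 0.39 for Mef2c in prehypertrophic cells and 0.23 for Sox9 in the interzone of the library labelled DCKO, 0.58 for Runx3 in prehypertrophic cells of the library labelled G1KO, and -1.43 for Sox9 in osteogenic cells between the controls. Of ratios past 1.5-fold, those that changed sign under thinning were Sox6 prehypertrophic over matrix-rich at E14.5 (0.049), Sp7 in prehypertrophic cells between the controls (0.73) and Dlx6 in matrix-rich cells of the library labelled G1KO (-0.078). Dlx6 in prehypertrophic cells of the library labelled DCKO changed to 0.060 without cells of several lineages and of the most UMIs.

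Of results short of 1.5-fold, 38 passed it under some alternative, with 56 such values in all and 27 of them under thinning. Results past 1.5-fold also fell short of it under some alternatives, and such a loss can lie within the counting interval. Sox5 in osteogenic cells between the controls, for example, went from -1.45 to -0.31 with looser gates.

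The leading ratios kept their direction under the 8 alternatives, and Runx1 in matrix-rich cells between the controls ranged from 1.24 to 1.44. Sox9 in matrix-rich cells of the library labelled DCKO was -0.66 as a mean over cells, -0.89 thinned and -0.58 with TMM. In prehypertrophic cells it was -1.24 with looser gates, -1.46 without cells of several lineages and of the most UMIs, -1.12 thinned and -1.10 with TMM. Runx3 there was -1.46 with looser gates, -2.12 thinned and -1.53 with TMM. Runx2 in matrix-rich cells between the controls was -2.80 with looser gates, -2.79 as a mean over cells and -2.90 thinned. Its prehypertrophic over matrix-rich ratio at E14.5 was 2.44 with stricter gates, 2.49 without cells of several lineages and of the most UMIs, 2.46 as a mean over cells and 1.13 thinned. Sox9 in the interzone over immature chondrocytes at E14.5 was -0.48 thinned. With TMM, 3 factors were lower in prehypertrophic and 1 in matrix-rich cells of the library labelled DCKO, and 6 were lower at E14.5 in matrix-rich controls under each of the 8. The share of prehypertrophic cells with both Sox9 and Runx2 was 54.6% unthinned and 2.59% at 1000 UMIs in the E14.5 control, and 46.0% and 1.14% in the library labelled DCKO. The cause was not tested for any of these moves.

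Depth limits the small groups most. Thinned cells leave 17 prehypertrophic and 20 osteogenic cells in the E14.5 control, so thinned ratios there rest on few UMIs, and Dlx6 and Sp7 are scarce at any depth.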
